A study of Mus musculus with 6 samples.

Results

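The unfolded protein response (UPR) of the endoplasmic reticulum was followed through 10 of its genes in mouse embryos in which Eif4a3 had been knocked down. The genes are Ern1, Atf6, Xbp1, Hspa5, Hsp90b1, Dnajb9, Sdf2l1, Pdia4, Creld2 and Herpud1. They were chosen by name as established sensors, factors and targets of this response and found by their Ensembl identifiers, each matching 1 of the 55378 genes of the deposited table. All 10 passed the filter on low counts, as did 15619 genes in all.

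Cells fold their secreted and membrane proteins in the endoplasmic reticulum (ER). When unfolded protein builds up there, the sensors IRE1 (Ern1), ATF6 and PERK (Eif2ak3) start transcription programmes that add chaperones, folding enzymes and degradation factors. IRE1 cuts a short intron out of Xbp1 mRNA in the cytoplasm and so switches XBP1 on, ATF6 is cut free from the membrane in the Golgi, and PERK slows translation and raises ATF4. A basal level of this machinery is needed in every cell that makes secreted and membrane proteins, and loss of Hspa5 or Hsp90b1 is known to be lethal to mouse embryos.

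The zygotes were injected with an siRNA against Eif4a3 or with a negative control siRNA (NC) and collected on day 5 at the blastocyst stage, with 3 libraries per group and 5 embryos pooled in each. Eif4a3 encodes the RNA helicase of the exon junction complex, which is laid on spliced mRNA. No strain, siRNA sequence or parentage of the pools is given in the labels, so the p-values measure the spread between these pools, which may be technical. Libraries were made by Smart-seq2 from whole embryos, and in such bulk RNA fewer cells of a type and less RNA per cell cannot be told apart.

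Eif4a3 itself measured 16.03, 36.2 and 56.2 CPM (counts per 1000000 of the TMM-scaled library size, edgeR) in knockdown replicates 1, 2 and 3, against 302, 255 and 202 CPM in the NC replicates. Every knockdown library lay below every NC library, and knockdown replicate 1 held the least (log2 fold change -2.81, standard error 0.44, edgeR adjusted p 0.00512). The summed gene counts were 16157719 to 18697754 in the knockdown libraries and 15607227 to 18389986 in the NC libraries. Correlations of log levels between libraries were 0.921 to 0.941 within the knockdown, 0.938 to 0.965 within NC and 0.818 to 0.883 between the groups. The median share of a gene's counts in the blocks nearer its 3′ end was 66.1%, 70.1% and 67.5% in the knockdown libraries and 69.6%, 71.9% and 70.1% in the NC libraries, over 6734 genes.

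Blastocyst lineage markers summed to 2374, 1246 and 703 CPM in knockdown replicates 1 to 3, against 6063, 4699 and 2703 CPM in NC. Of these markers, 15 of 16 had a mean of 1 CPM or more. This mean, here and for the lists below, is over all 6 libraries, so it does not show presence in each group. Markers of the 2-cell stage, of which 17 of 19 reached that mean, summed to 171, 523 and 559 CPM in the knockdown and 23.1, 19.7 and 12.6 CPM in NC. In both sums the groups did not overlap, and knockdown replicate 1 lay nearest to NC (exact two-sided permutation p 0.1, the smallest that 3 against 3 libraries can give). Of 8 markers of plasma cells and pancreas, secretory cells with a highly active UPR, 3 reached that mean. Their sum was 22.05 to 45.5 CPM in the knockdown and 6.57 to 13.7 CPM in NC, with Amy2a1 and Prss1 at 0 in all libraries. Blood cell markers (6 of 8 at 1 CPM) summed to 4.59 to 9.75 CPM in the knockdown and 8.14 to 57.4 CPM in NC, and fibroblast markers (2 of 7) to 1.02 to 10.7 CPM in the knockdown and 1.99 to 12.7 CPM in NC. No cumulus or sperm marker reached that mean. Cumulus markers summed to 0.602 to 0.666 CPM in the knockdown and 0.664 to 1.59 CPM in NC, with Amh, Fshr, Has2, Ptx3 and Tnfaip6 at 0, and sperm markers to 1.03 to 3.37 CPM in the knockdown and 1.04 to 2.43 CPM in NC. The part of these cell types and stages in the results below was not tested.

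Many UPR genes carry an ER stress response element in their promoter, which ATF6 and XBP1 bind together with the CCAAT-binding factor NF-Y. RefSeq promoter windows (GRCm38.p6, 250 bases before to 50 bases after the annotated start) were at hand for 9 of the 10 genes, Atf6 being the other, and were searched on both strands for 4 motifs. The ER stress response element was searched as CCAAT followed, after 9 bases of any kind, by CCACG, and its second form as ATTGG followed, after 1 such base, by CCACG. The core of the unfolded protein response element was written TGACGTG, and the composite element bound by ATF4 with a C/EBP partner was written TGATGNAAN. The first form of the stress element was found in 39 of 32851 windows of this length (0.119%), its second form in 12 (0.0365%), TGACGTG in 661 (2.01%) and the composite element in 1299 (3.95%). Since these genes are textbook UPR targets, finding the motif in them is no independent result. The 4 windows that held either form of the ER stress response element are shown because they carry the sites through which the response is known to act; capitals mark the 2 forms of the element alone, and each window is written 5′ to 3′ on the strand of its gene.

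Hspa5 (chr2:34771840-34772139, plus strand): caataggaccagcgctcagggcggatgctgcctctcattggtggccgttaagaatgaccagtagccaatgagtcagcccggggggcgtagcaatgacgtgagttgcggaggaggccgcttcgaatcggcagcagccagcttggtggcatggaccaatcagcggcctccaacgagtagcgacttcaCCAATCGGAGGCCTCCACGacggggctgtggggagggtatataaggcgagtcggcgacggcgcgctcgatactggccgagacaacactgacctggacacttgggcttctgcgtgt
Hsp90b1 (chr10:86705395-86705694, minus strand): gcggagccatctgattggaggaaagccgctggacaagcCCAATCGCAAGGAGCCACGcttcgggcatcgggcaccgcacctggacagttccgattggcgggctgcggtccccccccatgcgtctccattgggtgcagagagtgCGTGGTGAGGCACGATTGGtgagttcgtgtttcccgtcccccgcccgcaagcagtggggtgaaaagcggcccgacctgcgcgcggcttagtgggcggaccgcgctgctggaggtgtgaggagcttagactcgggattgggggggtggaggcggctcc
Creld2 (chr15:88819396-88819695, plus strand): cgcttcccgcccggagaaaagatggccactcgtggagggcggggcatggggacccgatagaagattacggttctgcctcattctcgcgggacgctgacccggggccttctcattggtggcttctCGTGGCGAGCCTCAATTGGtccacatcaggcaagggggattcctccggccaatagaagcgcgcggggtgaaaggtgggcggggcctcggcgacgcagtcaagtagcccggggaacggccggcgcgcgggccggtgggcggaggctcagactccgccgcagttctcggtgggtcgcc
Herpud1 (chr8:94386179-94386478, plus strand): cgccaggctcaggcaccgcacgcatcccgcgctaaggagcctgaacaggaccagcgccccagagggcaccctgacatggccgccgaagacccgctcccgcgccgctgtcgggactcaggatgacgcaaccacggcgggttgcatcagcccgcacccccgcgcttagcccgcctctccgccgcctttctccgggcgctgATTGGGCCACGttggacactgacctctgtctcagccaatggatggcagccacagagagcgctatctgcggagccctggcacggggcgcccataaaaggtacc

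Hspa5 had 1 ER stress response element on its own strand, starting at position -65 from the annotated start, and the core TGACGTG with its first base at -157. Hsp90b1 had 2, at -212 on its own strand and at -107 on the other. Creld2 had 1 on the other strand at -126. Herpud1 had the second form at -52 and the composite element on the other strand at -113. No 2 of these matches overlapped. The windows of Xbp1, Ern1, Dnajb9, Sdf2l1 and Pdia4 held none of the 4 motifs as written, which says only that these letters are not in those windows.

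Between the groups the UPR genes did not move as a unit. Dnajb9, an ER cochaperone, rose in the knockdown, Pdia4, an ER thiol oxidoreductase, fell, and the other 8 did not pass the test. By edgeR's quasi-likelihood test 1 of the 10 genes was therefore called higher, where 7.52% of all genes tested were, and 1 of 10 lower, where 5.56% were. Both shares are near that background and say nothing particular of these genes. Only in Pdia4 did the groups not overlap, with every knockdown library below every NC library, as in 16.4% of all genes. In 0 of the 10 did every knockdown library lie above every NC library, against 20.1% of all genes. At an unadjusted p under 0.05 the counts were 1 higher and 2 lower, and DESeq2 called 1 higher and 1 lower, against 11.7% higher and 9.55% lower over all genes with an adjusted p. No share of all genes at that unadjusted threshold is at hand, so such counts, here and below, have no background. The median log2 fold change of the 10 genes was -0.01, beside 0.03 for all genes tested.

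**Figure D1:**
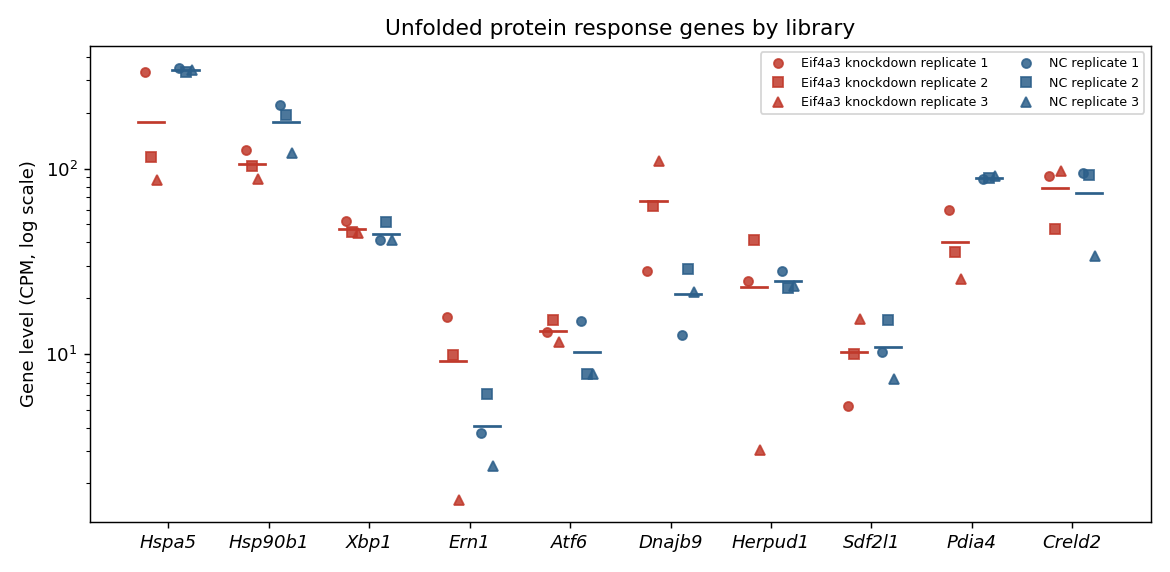
Level of the 10 UPR genes in each library, in CPM on a log axis. Eif4a3 knockdown replicates (red) stand left of NC replicates (blue) for each gene, and horizontal lines are means over 3 libraries. Pdia4 is the gene whose groups are apart, at 25.3 to 59.6 CPM in the knockdown and 88.2 to 91.5 CPM in NC, while Hspa5 in knockdown replicate 1 (334 CPM) lies with the NC libraries.

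The 3 upstream genes come first, with gene coordinates as in the deposited table (GRCm38). Ern1 (chr11:106394650-106487852, minus strand) encodes IRE1α, the kinase and endoribonuclease that splices Xbp1 mRNA. It measured 15.9, 9.81 and 1.62 CPM in knockdown replicates 1, 2 and 3, against 3.73, 6.04 and 2.49 CPM in NC. Knockdown replicates 1 and 2 lay above every NC library and replicate 3 below all of them, so the groups overlapped. These values rest on 339, 162 and 27 counts in the knockdown and 75, 91 and 38 in NC. The log2 fold change was 1.16 with a range of 2 standard errors from -0.24 to 2.55 (edgeR adjusted p 0.293). It was 0.45 without knockdown replicate 1 (edgeR adjusted p 0.705) and -0.12 when only the most counted exon block was used (0.917), where the adjusted p over the 13 alternatives ranged from 0.0750 to 0.917.

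Atf6 (chr1:170704674-170867771, minus strand) encodes the membrane-bound transcription factor that is cleaved in the Golgi under ER stress. Its level was 13.1, 15.3 and 11.6 CPM in the knockdown libraries and 15.1, 7.84 and 7.74 CPM in the NC libraries. NC replicate 1 lay within the knockdown values and the other two NC libraries below them. The difference did not pass (0.38, from -0.39 to 1.14 within 2 standard errors, edgeR adjusted p 0.548).

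Xbp1 (chr11:5520659-5525893, plus strand) encodes the transcription factor made active by IRE1. It measured 52.3, 45.5 and 44.7 CPM in the knockdown, against 41.0, 51.6 and 41.3 CPM in NC, and the libraries of both groups were interleaved. With 0.09 and a range of 2 standard errors from -0.45 to 0.63, a change of more than 1 log2 unit in either direction lay outside this range (edgeR adjusted p 0.854). The annotation splits exon 4 of Xbp1 by the 26 bases that IRE1 removes (chr11:5524270-5524295). Read pairs of either form add to both sides, because each pair was counted in every exon line it touched, and the whole exon is annotated as well. The whole-exon line held 250, 165 and 171 counts in the knockdown and 162, 157 and 124 in NC. The line before the gap held 136, 84 and 81 in the knockdown and 87, 87 and 53 in NC. The spliced share, which would show IRE1 activity, cannot be read from these lines.

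Among the chaperones, Hspa5 (chr2:34771970-34777547, plus strand) encodes BiP, the Hsp70 of the ER lumen that also holds the sensors inactive. It measured 334, 116 and 86.5 CPM in knockdown replicates 1, 2 and 3, against 352, 332 and 344 CPM in NC. The NC libraries lay within 1.06-fold of each other, knockdown replicate 1 lay inside their range, and the other knockdown libraries held 33.9% and 25.3% of the NC mean. The 3 knockdown libraries thus spanned 3.86-fold, and the difference did not pass (-0.94, standard error 0.46, edgeR adjusted p 0.199). Without knockdown replicate 1 it was -1.79 (edgeR adjusted p 0.00883), the only one of 13 alternatives in which Hspa5 was called, where the adjusted p ranged from 0.00883 to 0.425.

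Hsp90b1 (chr10:86690209-86705509, minus strand) encodes GRP94, the Hsp90 of the ER. It measured 127, 104 and 88.4 CPM in the knockdown, against 220.1, 196 and 122 CPM in NC. The 2 lower knockdown libraries lay below every NC library, and knockdown replicate 1 lay just above NC replicate 3. The difference of -0.75 (standard error 0.31) had an unadjusted p of 0.0341 and an edgeR adjusted p of 0.132. Exons of other annotated genes cover 15.7% of its exon bases, 5.38% on the same strand, so part of these counts cannot be assigned to it.

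Dnajb9 (chr12:44205559-44210326, minus strand) encodes ERdj4, a J-domain cochaperone that brings BiP to substrates and to IRE1. It measured 28.0, 63.2 and 109.7 CPM in knockdown replicates 1, 2 and 3, against 12.6, 28.8 and 21.7 CPM in NC. Knockdown replicates 2 and 3 lay above every NC library, while replicate 1 lay just under NC replicate 2. Dnajb9 was 3.18-fold higher in the knockdown (log2 fold change 1.67, standard error 0.49, edgeR adjusted p 0.0496). The call stood close to the threshold. It was lost without knockdown replicate 2 (edgeR adjusted p 0.106), knockdown replicate 3 (0.173), or NC replicate 1, 2 or 3 (0.143, 0.0862 and 0.124), and over the 13 alternatives the adjusted p ran from 3.7e-04 to 0.173.

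Sdf2l1 (chr16:17130138-17132383, minus strand) encodes a lumenal partner of ER J-domain proteins. It measured 5.20, 9.93 and 15.5 CPM in the knockdown, against 10.3, 15.2 and 7.28 CPM in NC. The lowest and the highest of the 6 values were both knockdown libraries, and the difference was -0.10, from -1.03 to 0.83 within 2 standard errors (edgeR adjusted p 0.912).

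Of the folding enzymes, Pdia4 (chr6:47796141-47813430, minus strand) encodes ERp72, a protein disulfide isomerase of the ER lumen. It measured 59.6, 35.6 and 25.3 CPM in knockdown replicates 1, 2 and 3, against 88.2, 89.3 and 91.5 CPM in NC. The NC libraries were nearly level with each other, and all knockdown libraries lay below them at 66.5%, 39.6% and 28.2% of their mean. Pdia4 was 2.23-fold lower in the knockdown (log2 fold change -1.16, standard error 0.34, edgeR adjusted p 0.0498). This call also lay at the threshold. It was lost without knockdown replicate 2 or 3 (edgeR adjusted p 0.141 and 0.127) and without NC replicate 1, 2 or 3 (0.114, 0.129 and 0.111), and over the 13 alternatives the adjusted p ran from 0.0125 to 0.141.

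Creld2 (chr15:88819646-88826683, plus strand) encodes a secreted disulfide isomerase-like protein that is induced by ER stress. It measured 90.9, 47.0 and 97.1 CPM in the knockdown, against 94.5, 92.9 and 33.9 CPM in NC. Each group had 1 low library and a pair near the same high level, so the groups overlapped over most of their range. The difference was 0.09, from -0.76 to 0.94 within 2 standard errors (edgeR adjusted p 0.915).

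Herpud1 (chr8:94386438-94395377, plus strand) encodes a membrane protein that assembles the ER-associated degradation complex. It measured 24.8, 41.1 and 3.01 CPM in knockdown replicates 1, 2 and 3, against 28.1, 22.6 and 23.2 CPM in NC. Knockdown replicate 3, with 50 counts, held 12.2% of the NC mean, while replicate 2 was the highest of all 6 libraries. The knockdown libraries spanned 13.7-fold, the widest span of the 10 genes, and the difference was -0.10 with a standard error of 0.67 (edgeR adjusted p 0.938). The estimate was -0.82 without knockdown replicate 2 (edgeR adjusted p 0.507) and 0.41 without knockdown replicate 3 (0.511, where the alternatives ranged from 0.507 to 0.997).

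**Figure D2:**
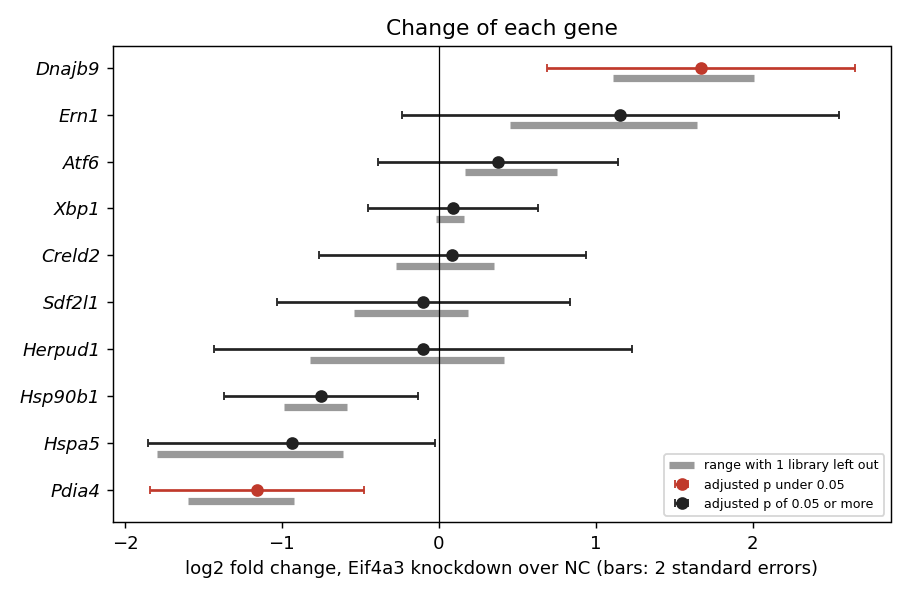
Log2 fold change of each UPR gene, Eif4a3 knockdown over NC (points), with bars of 2 standard errors. These bars are not edgeR's test: that of Hspa5, from -1.85 to -0.02, leaves out 0 although its unadjusted edgeR p was 0.0671. Grey bars give the range of the estimate when 1 library was left out. Dnajb9 (1.67) and Pdia4 (-1.16) passed the adjusted threshold of 0.05, and the grey bar of Hspa5 reaches -1.79.

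In 6 of the 10 genes the knockdown libraries spanned a wider range than the NC libraries. The ratio of the highest to the lowest library had a median over the 10 genes of 2.67 in the knockdown and 1.88 in NC, beside 1.80 in the knockdown and 1.59 in NC over the 9450 tested genes with a mean of at least 5 CPM. Knockdown replicate 3 was the lowest of the 3 knockdown libraries in 7 of the 10 genes (Ern1, Atf6, Xbp1, Hspa5, Hsp90b1, Pdia4 and Herpud1), and replicate 1 the highest in 5 (Hspa5, Hsp90b1, Xbp1, Ern1 and Pdia4). Dnajb9 and Sdf2l1 ran the other way, lowest in replicate 1 and highest in replicate 3. The share of all genes with such orders, or with a wider span in the knockdown, was not taken. Replicate 1 was the knockdown library with the least Eif4a3 RNA and with the blastocyst and 2-cell marker sums nearest to NC, though its plasma cell and pancreas sum and its blood sum were the farthest from NC of the 3 (45.5 and 4.59 CPM), and the part of embryo stage and of other cells in this order was not tested. The 10 genes summed to 751, 488 and 483 CPM in knockdown replicates 1 to 3, against 866, 842 and 694 CPM in NC. Hspa5 made up 44.5%, 23.8% and 17.9% of that sum in the knockdown and 40.7%, 39.4% and 49.5% in NC.

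Levels were compared between genes as CPM per kilobase of merged exon. In the knockdown the order of the means was Creld2 (57.3), Hspa5 (42.3), Hsp90b1 (26.4), Dnajb9 (26.3), Pdia4 (16.7), Xbp1 (14.6), Herpud1 (9.85), Sdf2l1 (9.22), Atf6 (1.44) and Ern1 (1.11). In NC it was Hspa5 (81.0), Creld2 (54.0), Hsp90b1 (44.4), Pdia4 (37.4), Xbp1 (13.7), Herpud1 (10.6), Sdf2l1 (9.86), Dnajb9 (8.25), Atf6 (1.11) and Ern1 (0.500). Among the knockdown libraries only the step from Sdf2l1 to Atf6 separated neighbours in this order, while the ranges of all other neighbours overlapped. Among the NC libraries the neighbours were apart at 5 of 9 steps, namely between Hspa5 and Creld2, Pdia4 and Xbp1, Xbp1 and Herpud1, Dnajb9 and Atf6, and Atf6 and Ern1. By their means the sensors were the least abundant of the 10 in both groups, and Dnajb9 had rank 4 in the knockdown and rank 8 in NC. Only neighbours were compared, and Herpud1 in knockdown replicate 3 (1.29) lay below the highest knockdown values of Atf6 (1.65) and Ern1 (1.94). A pair that crosses a splice junction counted in more than 1 exon, which raises this measure in genes with many short exons.

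Because the counts are per exon, each gene could also be followed along its length, in blocks of merged exons numbered from the 5′ end. In Pdia4 the lower level held in all 10 blocks, with every knockdown library below every NC library in each and a ratio of knockdown to NC means between 0.376 and 0.569. In Hspa5 all 7 blocks had ratios of 0.451 to 0.592, and in 3 of them the groups did not overlap. In Hsp90b1 all 16 blocks had ratios of 0.408 to 0.802, and the groups were apart in the 5 blocks nearest the 3′ end. In Dnajb9 the 3 blocks with a mean of at least 10 counts had ratios of 2.87 to 4.38, and in 2 of them every knockdown library lay above every NC library. In Atf6 the 9 blocks with that mean had ratios of 0.980 to 2.01, and in block 4 every knockdown library lay above every NC library. Among blocks with that mean, the groups were apart in 0 of Creld2, Ern1, Herpud1, Sdf2l1 and Xbp1. The blocks of a gene come from the same 6 libraries and share pairs that cross a junction, so they are not independent. The share of all blocks whose groups were apart was not taken. A test of unequal use of blocks within a gene (edgeR, adjusted over 67890 blocks, of which 0.168% passed) called 0 blocks in the 9 UPR genes it covered. Their lowest unadjusted p was 0.182, so 0 were under 0.05 before adjustment too. The blocks of Ern1 held too few counts to be tested.

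In Ern1 the counts were spread unevenly, in stretches that were chosen after the values were seen. Blocks 1 to 11 held 222, 121 and 17 counts in knockdown replicates 1, 2 and 3, against 46, 56 and 26 in NC. Blocks 12 to 16 (chr11:106407496-106411814) held 87, 28 and 0 in the knockdown and 3, 0 and 2 in NC. Blocks 17 to 21 held 16, 0 and 0 in the knockdown and 12, 16 and 4 in NC. Block 22, at the 3′ end and 4105 bases long, held 14, 13 and 10 in the knockdown and 14, 19 and 6 in NC. The higher Ern1 counts of knockdown replicates 1 and 2 thus lay in blocks 1 to 16, while in the sum of blocks 17 to 21, and in block 22, neither of these libraries exceeded the highest NC count.

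**Figure D3:**
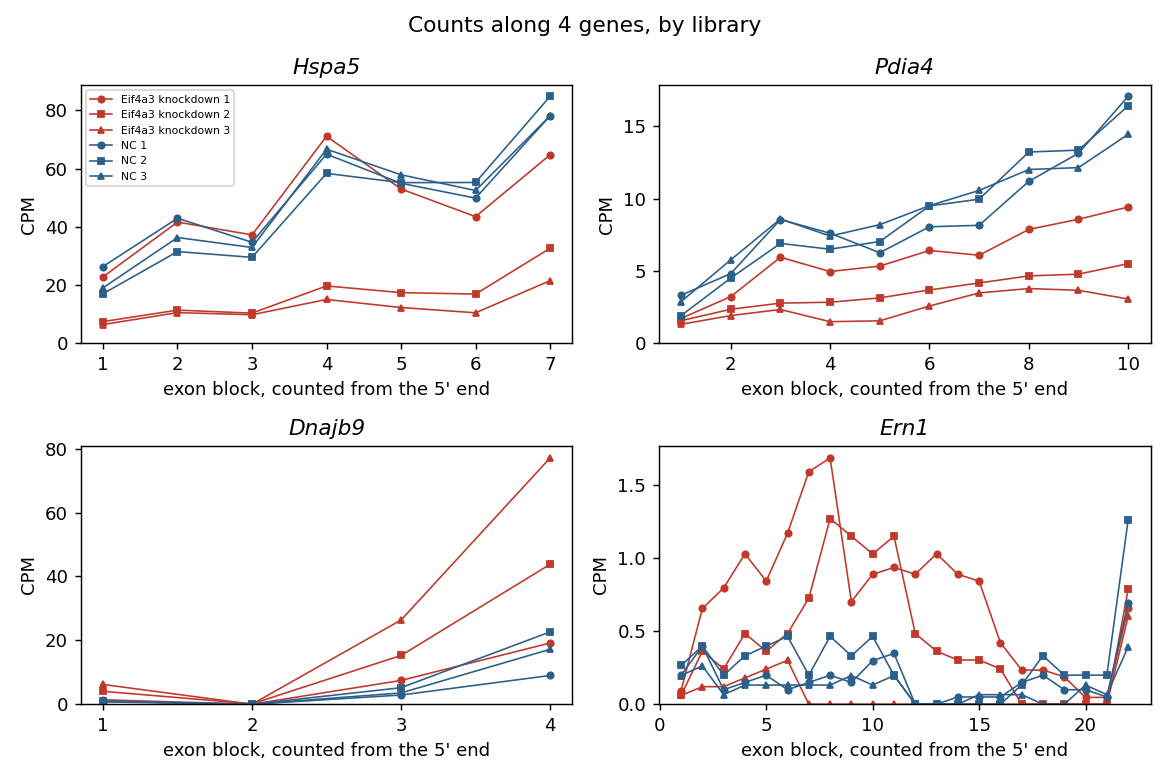
CPM of each exon block along Hspa5, Pdia4, Dnajb9 and Ern1, numbered from the 5′ end, with a line for each Eif4a3 knockdown library (red) and each NC library (blue). The knockdown lines of Pdia4 run below those of NC at all 10 blocks, and Ern1 of knockdown replicates 1 and 2 departs from NC before the last block. Hspa5 of knockdown replicate 1 runs near NC, above all NC libraries at blocks 3 and 4 and below all of them at blocks 5 to 7.

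The rest of the pathway was followed in 7 lists by role with 160 genes, 156 of them tested. Of these, 12 were called higher (7.69%) and 9 lower (5.77%) by edgeR, close to the 7.52% and 5.56% of all genes, with a median log2 fold change of 0.03, as for all genes. DESeq2 called 18 higher and 11 lower, where it called 11.7% higher and 9.55% lower over all genes. Counts at an unadjusted p, given below for some lists, have no such share beside them.

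Among 14 tested sensors and signal partners 0 were higher (1 at an unadjusted p under 0.05, 1 by DESeq2) and 2 lower, with a median of -0.38. Creb3l2, a membrane-bound factor related to ATF6 that drives secretory genes, fell to 1.78, 1.51 and 0.361 CPM in the knockdown libraries, against 8.55, 3.32 and 5.71 CPM in NC (log2 fold change -2.25, edgeR adjusted p 0.0459). Bag6, a chaperone for tail-anchored and misfolded proteins, fell to 6.04, 12.7 and 6.68 CPM in the knockdown, against 27.4, 32.4 and 13.7 CPM in NC (-1.53, edgeR adjusted p 0.0458). In both genes the groups did not overlap. The 2 most abundant members of that list did not pass, Tmbim6, an inhibitor of ER stress-induced death, with 0.04 (edgeR adjusted p 0.946) and Rtcb, the ligase that rejoins Xbp1 mRNA, with -0.37 (0.619). The third sensor, Eif2ak3 (PERK), is given here for its role; it had 2.34, 3.39 and 2.89 CPM in the knockdown and 5.12, 5.44 and 3.35 CPM in NC, a difference that did not pass (-0.69, edgeR adjusted p 0.333).

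ER chaperones and cochaperones had 3 of 20 tested genes higher and 2 lower, with a median of 0.05. Dnajc3 (p58IPK, a J-domain cochaperone of BiP) measured 184, 164 and 99.3 CPM in the knockdown and 61.4, 77.6 and 46.1 CPM in NC, with no overlap (1.27, edgeR adjusted p 0.0320). Dnajc1, another ER J-domain protein, rose by 1.39 (edgeR adjusted p 0.0186) and Fkbp7, a prolyl isomerase of the ER, by 3.62 at a low level (4.59, 15.3 and 4.09 CPM in the knockdown, 0.547, 0.398 and 0.984 CPM in NC, edgeR adjusted p 0.00999). Fkbp7 held 98, 252 and 68 counts in the knockdown but only 11, 6 and 15 in NC, so the size of its change is poorly fixed. Knockdown replicate 2 was the highest library of Fkbp7. Without that library the change was 2.75 (edgeR adjusted p 0.0372, with leave-one-out fits between 0.0112 and 0.0487). Both lower genes act on glycoproteins. Calr (calreticulin) measured 64.5, 40.3 and 27.3 CPM in the knockdown and 177, 158 and 89.97 CPM in NC (-1.68, edgeR adjusted p 0.0206). Uggt1, which marks unfolded glycoproteins for another round with calreticulin and calnexin, measured 31.2, 29.7 and 31.1 CPM in the knockdown and 112, 89.98 and 54.7 CPM in NC (-1.48, edgeR adjusted p 0.0161). Canx (calnexin) did not pass, at 193, 162 and 166 CPM in the knockdown and 159, 171 and 119 CPM in NC (0.21, edgeR adjusted p 0.640). Ppib, an ER cyclophilin, did not pass either (-0.34, edgeR adjusted p 0.398), and exons of another annotated gene cover 25.0% of its exon bases.

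Oxidative folding enzymes had 1 of 19 tested genes higher and 0 lower (2 at an unadjusted p under 0.05, 0 by DESeq2), with a median of 0.17. The higher one was Ero1l (Ero1a in RefSeq), the oxidase that recharges protein disulfide isomerases. It measured 60.6, 119.5 and 58.3 CPM in the knockdown and 18.4, 21.4 and 21.5 CPM in NC, well apart (1.96, standard error 0.35, edgeR adjusted p 0.00804). The abundant oxidoreductases Selenof (0.17) and Pdia3 (-0.27) did not pass (edgeR adjusted p 0.731 and 0.663). Pdia3 had its highest knockdown value in replicate 1, at 744, 340 and 343 CPM in the knockdown, against 583, 475 and 659 CPM in NC.

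ER-associated degradation had 2 of 28 tested genes higher and 0 lower (2 at an unadjusted p under 0.05, 1 by DESeq2), with a median of 0.02. Erlec1, a lectin that hands glycoproteins to the degradation complex, measured 61.7, 62.4 and 51.4 CPM in the knockdown and 16.5, 31.4 and 25.7 CPM in NC (1.25, edgeR adjusted p 0.0297). Ube2j1, the ubiquitin-conjugating enzyme of that complex, measured 42.7, 53.2 and 60.1 CPM in the knockdown and 21.4, 29.7 and 22.3 CPM in NC (1.09, edgeR adjusted p 0.0378). Both were higher in every knockdown library than in any NC library. Ufd1 (0.55) and Selenok (0.98), the most abundant that were not called, had edgeR adjusted p of 0.271 and 0.111. The core of the complex, named here for its role, showed small differences, with Sel1l at 0.14, Syvn1 at 0.31 and Edem1 at -0.12 (edgeR adjusted p 0.834, 0.672 and 0.817).

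Translocation and glycosylation had 2 of 35 tested genes higher and 3 lower, with a median of -0.17. Tram1 (1.39, edgeR adjusted p 0.0252) and Sec61a2 (1.06, 0.0368), both of the protein-conducting channel, were higher. Exons of another annotated gene cover 19.9% of the exon bases of Sec61a2, so part of its counts cannot be assigned to it. The lower genes were Stt3b (-1.41, edgeR adjusted p 0.0209) and Ddost (-1.17, 0.0363), subunits of the oligosaccharyltransferase, and Ganab (-1.36, 0.0333), the glucosidase that trims N-glycans for calnexin and calreticulin. Ddost measured 376, 288 and 218 CPM in the knockdown, against 772, 527 and 680.1 CPM in NC. Other abundant members did not pass, among them Ssr2 of the translocon-associated complex (0.07, edgeR adjusted p 0.898) and Dad1, another oligosaccharyltransferase subunit (-0.37, 0.588).

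In the PERK-ATF4 arm 2 of 16 tested genes were higher and 0 lower (1 at an unadjusted p under 0.05, 0 by DESeq2), with a median of 0.28. Ddit3, which encodes the stress-induced factor CHOP, measured 105, 49.7 and 94.6 CPM in the knockdown and 18.0, 23.4 and 20.999 CPM in NC, with every knockdown library above the highest NC value (2.0, standard error 0.35, edgeR adjusted p 0.00704). Exons of other annotated entries, among them a second Ddit3 entry, cover 10.9% of its exon bases. Ddit4, an inhibitor of mTORC1 signalling, rose by 2.95 at a low level (edgeR adjusted p 0.0187). It measured 2.67, 3.45 and 1.56 CPM in the knockdown and 0.199, 0.465 and 0.328 CPM in NC. Ddit4 held 57, 57 and 26 counts in the knockdown but only 4, 7 and 5 in NC, so the size of this change is poorly fixed. Atf4 itself, named for its role, had 62.2, 57.8 and 41.7 CPM in the knockdown and 39.3, 28.6 and 33.2 CPM in NC; the groups did not overlap, but the difference did not pass (0.68, edgeR adjusted p 0.151). Eif2s1, the subunit of eIF2 that PERK phosphorylates, and Psat1, a serine synthesis enzyme, did not pass either (-0.26 and -0.21, edgeR adjusted p 0.610 and 0.696).

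COPII and Golgi traffic had 2 of 24 tested genes higher and 2 lower, with a median of 0.09. Sec24c (-1.73, edgeR adjusted p 0.0136) and Sec31a (-1.79, 0.0139), coat subunits of the vesicles that leave the ER, were lower. Sec31a measured 15.4, 23.1 and 11.8 CPM in the knockdown, against 79.2, 54.98 and 40.1 CPM in NC. Sar1a, the GTPase that starts the same coat, was higher, at 395, 633 and 813 CPM in the knockdown and 227, 294 and 309 CPM in NC (1.15, edgeR adjusted p 0.0465). Kdelr3, a receptor that returns lumenal chaperones to the ER, was also higher (1.09, 0.0444). The cargo receptors Tmed10 (-0.16) and Lman2 (0.22) did not pass (edgeR adjusted p 0.752 and 0.686).

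Of these 21 calls, those of Ddit3, Ero1l and Fkbp7 were kept whichever library was left out. Their highest edgeR adjusted p over these fits was 0.0383, 0.0428 and 0.0487, and Fkbp7 held only 6 to 15 counts per NC library. Sec24c and Sec31a kept theirs in 5 of 6 such fits (highest 0.0517 and 0.0502), Dnajc1 and Uggt1 in 3 (0.0688 and 0.0612), and Bag6, Calr, Ddit4, Stt3b and Tram1 in 2. Creb3l2, Ddost, Dnajc3, Erlec1, Ganab, Sar1a and Ube2j1 kept theirs in 1, and Kdelr3 and Sec61a2 in none.

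**Figure D4:**
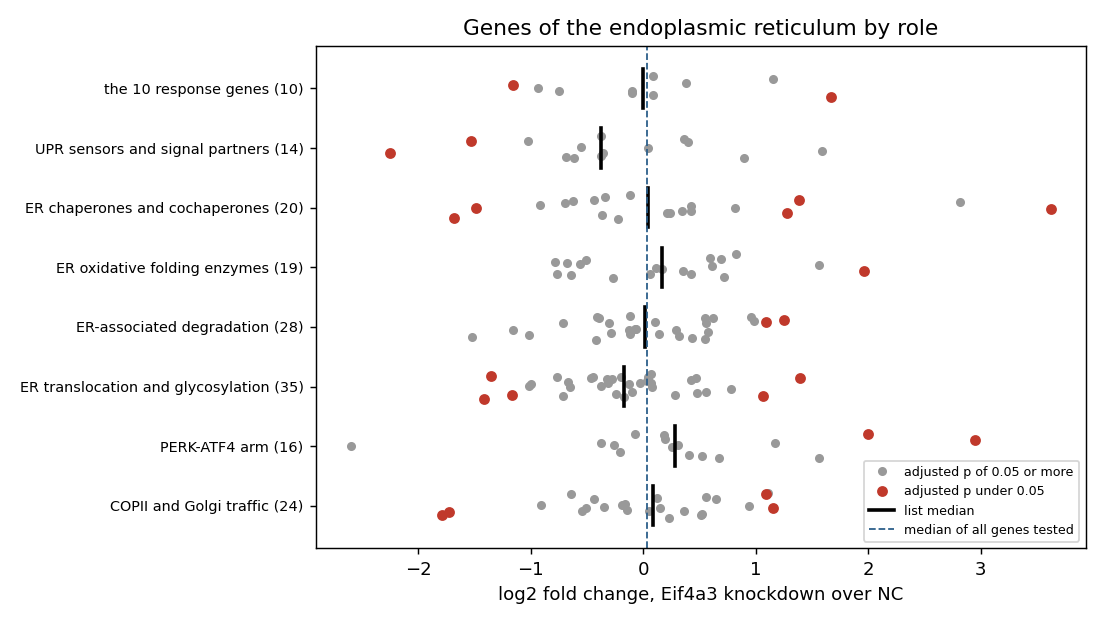
Log2 fold change, Eif4a3 knockdown over NC, of each tested gene of the 10 UPR genes and the 7 lists by role, with the number tested in brackets; red points passed the adjusted threshold of 0.05, black bars are list medians and the dashed line is the median of all genes (0.03). Red points lie on both sides of 0, and list medians run from -0.38 to 0.28.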

How the data were processed

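RNA was measured by Smart-seq2 in 3 Eif4a3 knockdown and 3 NC libraries, with paired reads of 150 bases. The submitters' processing notes name FastQC 0.11.9, fastp 0.20.1, STAR 2.7.6a, featureCounts 2.0.1, R 4.1.1 and DESeq2 1.34.0. The authors deposited raw counts of read pairs for each exon line of GENCODE release M29, moved to GRCm38, per the file headers, with each pair counted in every exon it touches and strand setting 2; counting of pairs with several alignments was not requested. Smart-seq2 marks no strand, so pairs of the other orientation are missing and overlapping or antisense genes cannot be told apart.

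The planned tests assumed counts per gene. The 842173 lines were therefore reduced to 449500 distinct exons and 291424 merged blocks, the most counted line of each block was kept, and blocks were summed per gene, which counts a pair across a junction more than once. Of 55378 genes, 55102 were matched to a symbol. Gene counts summed to 15607227 to 18697754 per library, which limits genes with few counts such as Ern1.

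Genes were tested with edgeR 4.0.16 (filterByExpr, TMM, glmQLFit and glmQLFTest, two-sided) in R 4.3.3, unpaired, on all 6 libraries, with Benjamini-Hochberg adjustment over 15619 genes and a threshold of 0.05. CPM were taken from the TMM-scaled library sizes. Blocks were tested with edgeR's diffSpliceDGE, and summed marker levels with exact two-sided permutation tests. Sequences are from RefSeq promoter windows of GRCm38.p6. Both test scripts were tested on simulated counts. The alternatives were DESeq2 1.42.0, RLE scaling, no filter, a filter at 5 CPM, other sums of exon lines, a replicate block and leaving out each library.

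The members and lists were chosen with earlier results of these data known. Named were all 10 members, Eif4a3, and from each list up to 3 called genes per direction with the largest change and the 2 most abundant that were not called. Genes named for their role fall outside this rule and were picked from a longer set after their values were seen. The others of that set that were tested did not pass (edgeR adjusted p 0.0752 to 0.843). They were Manf (-0.70), Hyou1 (-0.92), Atf6b (-0.62), Mbtps1 (-0.38), Mbtps2 (0.89), Ppp1r15a (0.18) and Trib3 (1.17). Chac1 and Ern2 held too few counts to be tested. Chac1 had 24, 23 and 7 counts in the knockdown and 0, 1 and 0 in NC. Ern2 had 0, 0 and 8 in the knockdown and 0, 4 and 7 in NC.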

Additional observations from a re-analysis of the deposited data

How the results depend on the processing

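Both UPR calls lay close to the threshold, and each was kept in 1 of 6 fits that left out 1 library. Over these fits the estimate ran from 1.11 to 2.01 for Dnajb9 and from -1.60 to -0.92 for Pdia4. The count of called UPR genes, 1 higher and 1 lower, was 0 and 0 with the sum of all exon lines and 0 lower with a filter at 5 CPM, and ranged from 0 to 1 higher and 0 to 2 lower when 1 library was left out. With the sum of all lines Dnajb9 had an edgeR adjusted p of 0.0568 and Pdia4 one of 0.0652, and with the 5 CPM filter Pdia4 had 0.0521. Over all genes, 1829 were higher and 1490 lower by DESeq2, and 2089 and 1518 without the filter on low counts, against 1174 and 869; leaving out 1 library gave 550 to 1224 higher and 336 to 1130 lower. The lists by role had 3 to 11 higher and 0 to 16 lower genes with 1 library left out. The cause was not tested.

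With only the most counted block, which for Ern1 is the last one, Ern1 had -0.12, against 1.16 over all blocks. Estimates near 0, and that of Rtcb, turned their sign in some fits. With 1 library left out, Xbp1 ranged from -0.019 to 0.16, Herpud1 from -0.82 to 0.41, Sdf2l1 from -0.54 to 0.19, Creld2 from -0.28 to 0.35, Tmbim6 from -0.13 to 0.20, Rtcb from -0.90 to 0.064 and Ssr2 from -0.021 to 0.15. The cause was not tested.

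Same-numbered libraries correlated at 0.27, 0.00 and 0.10 after group means were removed. The 0.27 of the replicates 1 was the highest of any knockdown and NC pair, while knockdown replicate 3 correlated best with NC replicate 2 (0.19). No pairing is stated in the labels, so the main fit was unpaired, and whether the numbers pair the libraries is not known. A fit with the replicate block called 1331 genes higher and 1196 lower, 1 UPR gene higher and 1 lower, and 0 UPR blocks in the usage test. In that fit Hspa5 had -1.20 (edgeR adjusted p 0.0626, against 0.199 unpaired) and Hsp90b1 -0.72 (0.0665, against 0.132), and neither passed. RLE scaling moved no count of UPR calls. Depth limits Ern1 most, with 27 to 339 counts per library, followed by Herpud1 in knockdown replicate 3.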

Other observations

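The ER stress response element was also read across all genes. Its RefSeq promoter windows belong to 37 genes, of which 21 were tested, and by edgeR 1 was higher (Dnajc3) and 2 were lower (Calr and Zfp57), with a median log2 fold change of 0.09, while DESeq2 called 3 higher and 2 lower. Over all genes tested edgeR called 7.52% higher and 5.56% lower, and DESeq2 11.7% higher and 9.55% lower. Leaving out Hspa5, Hsp90b1 and Creld2 gave a median of 0.18 over 18 genes. Zfp57, a zinc finger protein that guards imprinted methylation, measured 0.750, 2.30 and 1.38 CPM in the knockdown, against 10.4, 15.4 and 27.3 CPM in NC, with no overlap (-3.58). Pdia6, an oxidoreductase with the element, had -0.56 and Syvn1, the ubiquitin ligase of ER-associated degradation, had 0.31, and neither passed. Of 10 tested genes with the second form of the element, 0 were called in either direction by edgeR or by DESeq2. An unadjusted edgeR p under 0.05 was found for 6 of the 21 genes with the first form and for 1 of these 10. The gene with the second form was Nucb1, a Golgi calcium-binding protein, at -1.13 (adjusted p 0.122). Genes with TGACGTG numbered 329 tested, of which 14 (4.26%) were higher and 23 (6.99%) lower (median -0.03), and those with the ATF4 composite element 276, of which 24 (8.70%) were higher and 15 (5.43%) lower (median 0.02). A match of letters in a window does not show that a factor binds there.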
